A study of Mus musculus with 6 samples.

Results

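The cancer-testis antigen families MAGEA, MAGEB, MAGEC, XAGE, PAGE, GAGE, SSX and CTAG were compared between parental 22Rv1 cells and a subline resistant to BL-B01D1. The genes were chosen by name, as protein-coding genes whose symbol begins with one of these family names followed by a number, which selected 62 of the 58735 genes in the count table. The selection also took SSX2IP, which encodes an interaction partner of SSX2 and is no family member itself. It is kept among the 62 genes and described apart from the SSX family. 22Rv1 is a line of human prostate cancer cells. The parental group comprised 3 libraries of 22Rv1 cells grown with vehicle, and the BL-B01D1_R group comprised 3 libraries of the resistant subline, which had been grown in stepwise higher concentrations of BL-B01D1. BL-B01D1 is an antibody-drug conjugate that binds EGFR and HER3 and carries the cytotoxic payload Ed-04. The subline is 1 line from 1 selection, so resistance and drift between the lines cannot be told apart. Nothing in the labels says that the libraries of a group came from separate cultures, so the tests measure only the spread between these libraries. The gene identifiers are human, although the organism field of the labels says mouse.

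Cancer-testis antigens are proteins made in germ cells of the testis, silent in most other adult tissues and made again in some tumors. In healthy tissue many of their promoters are methylated, and most of the large families lie in repeated gene clusters on the X chromosome. Peptides of these proteins can be shown on HLA class I molecules, which has made MAGEA3, MAGEA4 and CTAG1B (NY-ESO-1) targets of vaccines and engineered T cells. MAGE proteins share a homology domain that binds RING ubiquitin ligases such as TRIM28.

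Total counts ranged from 13821639 to 17251491 per library, and 3 counts corresponded to 0.174 to 0.216 CPM (counts scaled to a library of 1000000 after TMM normalization). ABCG2, the transporter that marks the subline, had 46 to 82 counts in parental and 6439 to 7194 counts in resistant libraries. Of the luminal prostate markers, KRT8 was at 514 ± 5.07 CPM (SD, n = 3) in parental and 538 ± 9.51 CPM (SD, n = 3) in resistant cells and HOXB13 at 439 ± 4.18 and 315 ± 11.3 CPM (SD, n = 3), whereas KLK3 had only 35, 53 and 39 counts in parental and 87, 53 and 98 in resistant libraries (log2 fold change 0.91, edgeR FDR 6.06e-04). Of 5 germ cell markers, DAZL had no count in any library and DDX4 and TEX101 had at most 3, while SYCP3 and MAEL (called lower in resistant cells) were present, and the list summed to 16.5 to 20.9 CPM in parental and 13.4 to 15.8 CPM in resistant libraries. MAEL reached the level needed for testing, 0.606 CPM, in 3 parental libraries but only 1 resistant library. Leukocyte markers summed to at most 0.715 CPM in any library. The 4 fibroblast markers, mostly COL1A1, summed to 15.3 to 17.4 CPM in parental and 13.1 to 13.4 CPM in resistant libraries.

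Of the 62 genes, 38 had a count in at least 1 library and 24 had none in any. More than 3 counts in some library were reached by 22 genes, and 16 had enough counts to be tested. Expression was unequal between the families. The MAGEA family had 8 tested genes of 12, CTAG all 3, SSX 3 of 8 and MAGEC 1 of 3, while XAGE, MAGEB, PAGE and GAGE had no tested gene of 5, 11, 6 and 13. The remaining tested gene was SSX2IP. Without SSX2IP, the genes summed to 1026, 1011 and 1016 CPM in parental libraries 1 to 3 and to 1084, 1123 and 1116 CPM in resistant libraries 1 to 3. In bulk RNA, expression by fewer cells and a lower level in each cell cannot be told apart. The plot of CPM by library shows each gene that exceeded 3 counts.

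**Figure D1:**
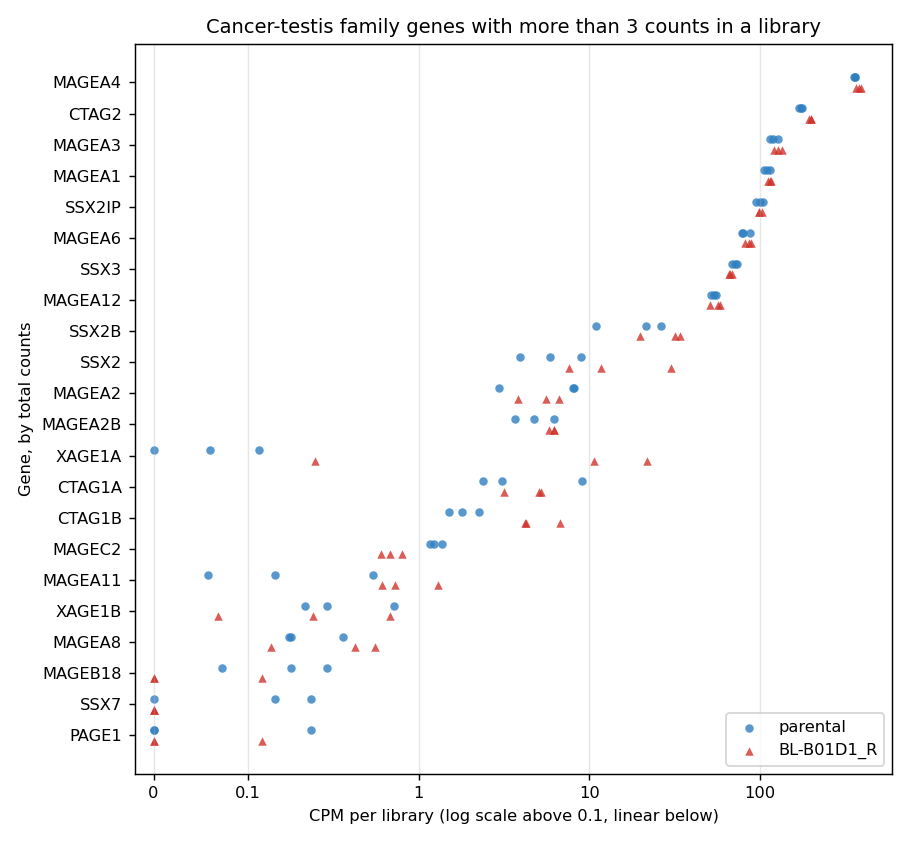
CPM (log scale above 0.1 CPM, linear below) of the 22 genes that exceeded 3 counts; circles are the 3 parental and triangles the 3 BL-B01D1_R libraries. The 8 most abundant genes lie between 51.0 and 390.2 CPM, whereas XAGE1A spans from 0.247 to 21.9 CPM among the resistant libraries.

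Differential expression was tested with edgeR's quasi-likelihood test over 17142 genes. A gene was called when its Benjamini-Hochberg FDR was less than 0.05 and its absolute log2 fold change was greater than 1. In resistant cells, 3 of the 16 tested genes were called higher (SSX2, CTAG1B and MAGEA11), against 2.53% of all tested genes. MAGEA11 passed the filter on low counts only through the resistant libraries, in which it is higher, so it adds no weight to this count or to the next ones over the tested genes. Of the 14 genes that reached the filter's level of 0.606 CPM in all 6 libraries, 2 were called higher (SSX2 and CTAG1B) and 0 lower. No share over all genes was computed under this condition, so nothing is read from this count. None of the 16 was called lower, against 2.84% of all tested genes. With limma-voom and DESeq2, 0 were also called lower, against 2.77% and 2.17% of their tested genes. MAGEC2 alone was lower at an unadjusted p of less than 0.05 in edgeR, where 3816 of all 17142 tested genes were. It reached the filter's level in 3 parental but only 2 resistant libraries, so the resistant libraries alone would not have kept it. Without the fold-change threshold, 6 genes were higher at an FDR of less than 0.05, which added CTAG2, SSX2B and MAGEA4, against 17.1% of all tested genes. None was lower at that FDR, against 18.4%, with the same single gene at an unadjusted p of less than 0.05. All resistant libraries lay above all parental ones in 4 tested genes (MAGEA4, CTAG2, CTAG1B and MAGEA11), or 25.0%, against 22.1% of all tested genes, and under them in MAGEC2 only, against 22.8%. The median log2 fold change of the 16 genes was 0.07, against 0.00379 over all tested genes. Limma-voom called 3 genes higher, against 2.56% of its genes, and DESeq2 called 2 (CTAG1B and XAGE1A), against 1.91%. XAGE1A had only 2, 1 and 0 counts in parental libraries. DESeq2 thus kept it because of the resistant libraries, and it adds no weight to that count. edgeR without a filter on low counts called 4 higher and 0 lower, against 1.54% and 1.62%, the fourth being XAGE1A. With the replicate number as a block, 3 were called higher and 0 lower, against 2.44% and 2.75%. glmTreat, which tests against an absolute log2 fold change of 1, called 0 in either direction, against 1.04% higher and 0.84% lower. SSX2 and CTAG1B have near-identical copies, and MAGEA11 had few counts.

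MAGEA4 was the most abundant MAGE gene. It had 6238, 5972 and 5001 counts in parental and 6064, 5616 and 6331 counts in resistant libraries, or 359 ± 3.25 CPM (SD, n = 3) and 379 ± 12.4 CPM (SD, n = 3). The groups did not overlap, but the highest parental and the lowest resistant library were 362 and 366 CPM. Its log2 fold change was 0.08 (SE 0.029, edgeR FDR 0.0323), and the FDR rose above 0.05 without parental library 2 (0.112), resistant library 2 (0.1002) or resistant library 3 (0.175). It was also above 0.05 with DESeq2 (0.0582), with library size alone (0.0901) and with limma on log2(FPKM + 1) (0.148). MAGEA4 (ENSG00000147381) lies on the forward strand of the X chromosome of hg38 from 151912509 to 151925170 and overlaps MAGEA4-AS1 on the other strand. MAGEA4-AS1 had 76, 93 and 61 counts in parental and 131, 121 and 99 counts in resistant libraries, with a log2 fold change of 0.63 (edgeR FDR 0.00185). Since the sources used here do not say whether counting used strand, reads of the pair where they overlap cannot be told apart.

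The other abundant MAGEA genes differed little between the lines. MAGEA3 and MAGEA6, which encode near-identical proteins that bind TRIM28 and direct AMPK for degradation, had 121 ± 6.32 and 81.9 ± 4.50 CPM (SD, n = 3) in parental cells and 128 ± 6.87 and 85.6 ± 3.29 CPM (SD, n = 3) in resistant cells. MAGEA1, the first cancer-testis antigen to be cloned, had 110 ± 4.39 CPM (SD, n = 3) in parental and 114 ± 2.29 CPM (SD, n = 3) in resistant cells, and MAGEA12 had 53.9 ± 1.77 and 55.3 ± 3.83 CPM (SD, n = 3). In all 4 genes the libraries of the groups overlapped. Their log2 fold changes were 0.09 for MAGEA3, 0.06 for MAGEA6, 0.06 for MAGEA1 and 0.04 for MAGEA12, with SE of 0.040 to 0.057 and edgeR FDR of 0.112 to 0.646. MAGEA3 came under an FDR of 0.05 without parental library 1 (log2 fold change 0.13, edgeR FDR 0.0184) and without resistant library 1 (0.13, edgeR FDR 0.0306). Summed over its 12 genes, the MAGEA family was at 737 ± 11.2 CPM (SD, n = 3) in parental and 775 ± 20.9 CPM (SD, n = 3) in resistant cells.

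MAGEA11 (ENSG00000185247), whose protein works with the ubiquitin ligase HUWE1, was expressed at a trace level. Its counts were 1, 9 and 2 in parental and 12, 9 and 21 in resistant libraries. Resistant library 2 and parental library 2 had the same count, and only scaling to library size set them apart, at 0.612 and 0.536 CPM. MAGEA11 was called higher with a log2 fold change of 1.79 (SE 0.55, edgeR FDR 0.00970), but it was tested at all only because the 3 resistant libraries reached the filter's level, which 0 parental libraries did. The FDR was 0.113 without resistant library 3, 0.0852 without parental library 1 and 0.0548 without parental library 3, and without resistant library 1 the gene no longer had enough counts to be tested. Without parental library 2 the log2 fold change was 3.09 (edgeR FDR 0.00185). With DESeq2 the FDR was 0.0821, and with a prior count of 5 the edgeR log2 fold change was 1.08. MAGEA8, the other gene of that part of the chromosome with more than 3 counts, had 3, 3 and 5 counts in parental and 7, 2 and 9 in resistant libraries and was not tested.

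CTAG2, which encodes the antigen LAGE-1, was the most abundant of all these genes per length. It rose from 174 ± 3.48 CPM (SD, n = 3) in parental to 198 ± 3.72 CPM (SD, n = 3) in resistant cells, on 3006, 2980 and 2367 counts in parental and 3206, 2926 and 3253 counts in resistant libraries. Every resistant library, from 193 CPM, lay above every parental library, up to 177 CPM. Its log2 fold change of 0.18 (SE 0.034, edgeR FDR 2.64e-05) ran from 0.17 to 0.20 over the 6 fits without 1 library, each of which kept an FDR of less than 0.05. CTAG2 (ENSG00000126890) lies on the reverse strand of the X chromosome from 154651972 to 154653579.

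Levels of different genes were compared as FPKM, which divides CPM by the gene length in kilobases. In parental cells CTAG2 was at 175 ± 3.50 FPKM, MAGEA4 at 117 ± 1.05, MAGEA3 at 67.4 ± 3.53, MAGEA1 at 64.1 ± 2.57, MAGEA6 at 44.0 ± 2.41, SSX3 at 33.8 ± 0.95 and MAGEA12 at 27.7 ± 0.91 FPKM (SD, n = 3). Of the neighbors in this order, only MAGEA3 and MAGEA1 overlapped between libraries, from 64.3 to 71.3 and from 61.6 to 66.7 FPKM. In parental cells CTAG2 stood above 99.3% and MAGEA4 above 98.8% of all protein-coding genes in the table. The order was the same in resistant cells, where CTAG2 was at 199 ± 3.74 and MAGEA12 at 28.5 ± 1.97 FPKM (SD, n = 3).

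SSX proteins are transcriptional repressors known from the SS18-SSX fusions of synovial sarcoma. SSX3 was the most abundant SSX gene, with 1191, 1227 and 990 counts in parental and 1107, 1017 and 1074 counts in resistant libraries. Its groups overlapped and its log2 fold change was −0.08 (SE 0.048, edgeR FDR 0.212). SSX2IP, which encodes a centrosome and cell junction protein and lies on chromosome 1 from 84643707 to 84690803, was at 99.8 ± 4.15 CPM (SD, n = 3) in parental and 100.3 ± 2.85 CPM (SD, n = 3) in the subline. The log2 fold change was 0.01 (SE 0.042, edgeR FDR 0.931).

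SSX2 and SSX2B are near-identical copies, on the X chromosome from 52696896 to 52707189 and from 52751132 to 52790305. SSX2 had 68, 99 and 124 counts in parental and 193, 442 and 123 counts in resistant libraries, and SSX2B had 373, 185 and 364 counts in parental and 530, 292 and 554 counts in resistant libraries. Resistant library 2 was highest in SSX2 and lowest of its group in SSX2B, and both genes overlapped between the groups. SSX2 was called higher with a log2 fold change of 1.40 (SE 0.26, edgeR FDR 2.81e-05), but without resistant library 2 the log2 fold change was 0.65 (edgeR FDR 0.0136), and with DESeq2 the FDR was 0.126. For SSX2B it was 0.57 (SE 0.15, edgeR FDR 0.00254), with an FDR above 0.05 without parental library 2 (0.27, edgeR FDR 0.101) and with DESeq2 (0.429).

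How reads were divided between such copies differed between libraries of 1 group. SSX2B took 84.6% of the pair's counts in parental library 1 (95% exact binomial interval 80.9% to 87.8%, counting error only) but 65.1% (59.3% to 70.7%) in parental library 2. In resistant library 2 its share was 39.8% (36.2% to 43.4%), against 81.8% (78.7% to 84.7%) in resistant library 3. The sources used here do not say how reads that match several places were counted, and its part in these shares was not tested. The counts of copies were therefore summed to 1 value per pair, a choice made after these values were seen, by the rule that symbols differ only in a final A, B or added B. Summed, the SSX2 pair had 441, 284 and 488 counts in parental and 723, 734 and 677 in resistant libraries. At 25.6, 16.9 and 35.2 CPM against 43.6, 49.9 and 41.7 CPM, the groups did not overlap. In a fit of all genes with pairs summed, the SSX2 pair rose with a log2 fold change of 0.82 (SE 0.11, edgeR FDR 1.20e-07). It ran from 0.58 to 1.08 over the fits without 1 library and was under the fold-change threshold except without parental library 3. The summed pairs were fitted with edgeR only, so no other method stands beside these values.

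**Figure D2:**
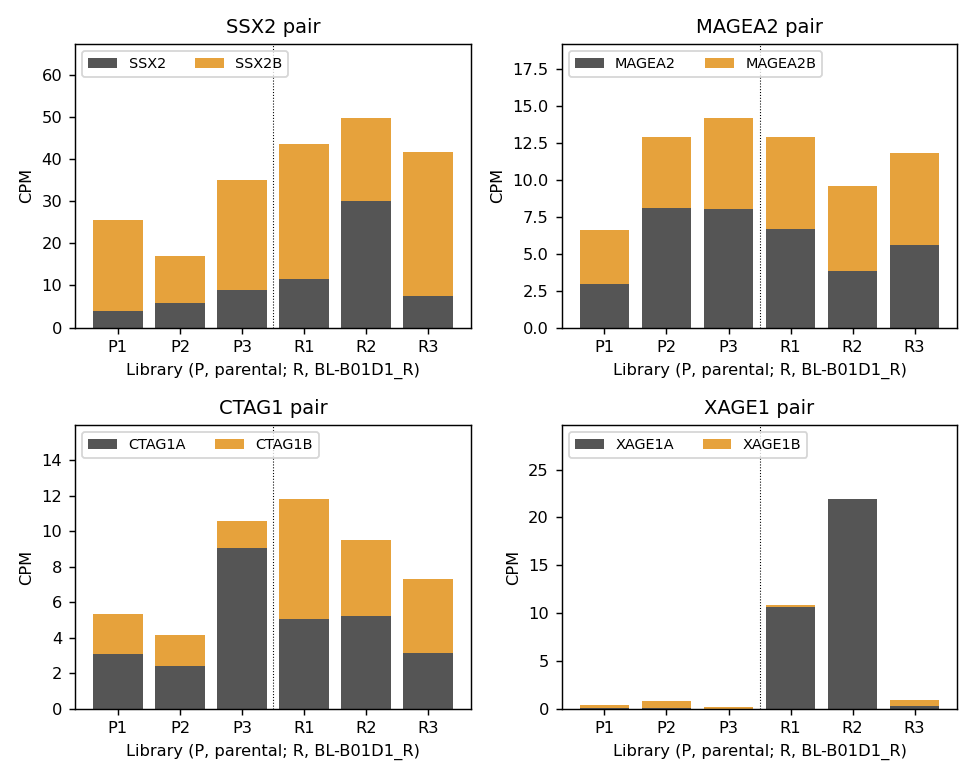
CPM of both copies of 4 gene pairs in each library, stacked from 0 (P1 to P3, parental; R1 to R3, BL-B01D1_R). The full height of the SSX2 pair is 41.7 to 49.9 CPM in the resistant libraries although its parts shift between copies, and the XAGE1 pair is high in R1 and R2 alone.

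CTAG1A and CTAG1B are likewise copies that encode NY-ESO-1. CTAG1B (ENSG00000184033; X chromosome, reverse strand, 154617609 to 154619282) had 39, 30 and 21 counts in parental and 112, 63 and 68 counts in resistant libraries, which did not overlap in CPM. It was called higher, with a log2 fold change of 1.44 (SE 0.23, edgeR FDR 1.68e-06) and a range of 1.18 to 1.61 with each library left out. CTAG1A had 53, 40 and 126 counts in parental and 84, 77 and 51 counts in resistant libraries, with a log2 fold change of −0.07 (SE 0.27, edgeR FDR 0.877). Parental library 3 was highest in CTAG1A and lowest in CTAG1B, where the latter's share of the pair was 14.3% (95% exact binomial interval 9.07% to 21.0%), against 42.4% (32.1% to 53.1%) and 42.9% (31.1% to 55.3%) in the other parental libraries. Without parental library 3, CTAG1A was at 0.71 on the log2 scale (edgeR FDR 0.0190).

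Summed, the CTAG1 pair was at 5.34, 4.17 and 10.6 CPM in parental and 11.8, 9.52 and 7.33 CPM in resistant libraries, and the groups overlapped. Its log2 fold change was 0.55 (SE 0.19, edgeR FDR 0.0213). This FDR rose above 0.05 without parental library 1 (0.0861), parental library 2 (0.260), resistant library 1 (0.228) or resistant library 2 (0.0586), whereas without parental library 3 the log2 fold change was 1.01 (edgeR FDR 1.84e-05).

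MAGEA2 and MAGEA2B, the third pair with enough counts, encode 1 protein that binds TRIM28 and p53. MAGEA2 had 51, 136 and 111 counts in parental and 110, 56 and 90 counts in resistant libraries, and MAGEA2B had 63, 80 and 86 against 103, 85 and 101. The groups overlapped in both, and the log2 fold changes were −0.23 (SE 0.22, edgeR FDR 0.46) and 0.34 (SE 0.17, edgeR FDR 0.131). Without parental library 1, MAGEA2 was lower at −0.58 (edgeR FDR 0.00595), and without parental library 3, MAGEA2B was higher at 0.53 (edgeR FDR 0.0270). Summed, the pair had 114, 216 and 197 counts in parental and 213, 141 and 191 in resistant libraries and a log2 fold change of 0.04 (SE 0.15, edgeR FDR 0.863).

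The spread between libraries was larger in the genes of these 3 pairs than in the abundant genes. The genes of the pairs also had fewer counts, and the part of copies and of low counts in this spread was not tested. Parental SD and Poisson SD (counting error alone) were 2.51 and 0.617 CPM for SSX2 and 7.80 and 1.10 CPM for SSX2B. They were 3.68 and 0.535 for CTAG1A, 0.379 and 0.343 for CTAG1B, 2.94 and 0.624 for MAGEA2 and 1.27 and 0.547 for MAGEA2B. For MAGEC2, with few counts and no such copy, they were 0.107 and 0.280 CPM. In resistant libraries MAGEA2B had 0.254 and 0.620 CPM. The biological coefficient of variation fitted by edgeR is drawn toward that of other genes of like level, so it is not a gene's own spread alone. It was 2.45% for MAGEA4 and 3.12% for SSX3, against a median of 5.27% over all tested genes. It was 19.6% for SSX2, 12.1% for SSX2B, 20.2% for CTAG1A, 13.1% for CTAG1B, 15.9% for MAGEA2 and 10.1% for MAGEA2B. The abundant MAGEA3 and MAGEA6, which encode near-identical proteins, had 3.11% and 3.21%. MAGEC2 and MAGEA11, with few counts and no such copy, had 15.7% and 20.6%. The observed CV, counting error included, was 8.57% in parental and 14.4% in resistant libraries for MAGEC2 and 104% and 41.7% for MAGEA11. For the copies of the 3 pairs the observed CV ran from 20.5% to 76.0% in parental and from 4.19% to 72.9% in resistant libraries. For the summed pairs the fitted coefficient was 8.71% (SSX2), 13.9% (CTAG1) and 11.1% (MAGEA2). All 3 sums still varied more than the median gene, with a CV among parental libraries of 35.3% (SSX2), 51.1% (CTAG1) and 36.1% (MAGEA2). Among resistant libraries the CV was 9.50%, 23.5% and 14.6%.

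**Figure D3:**
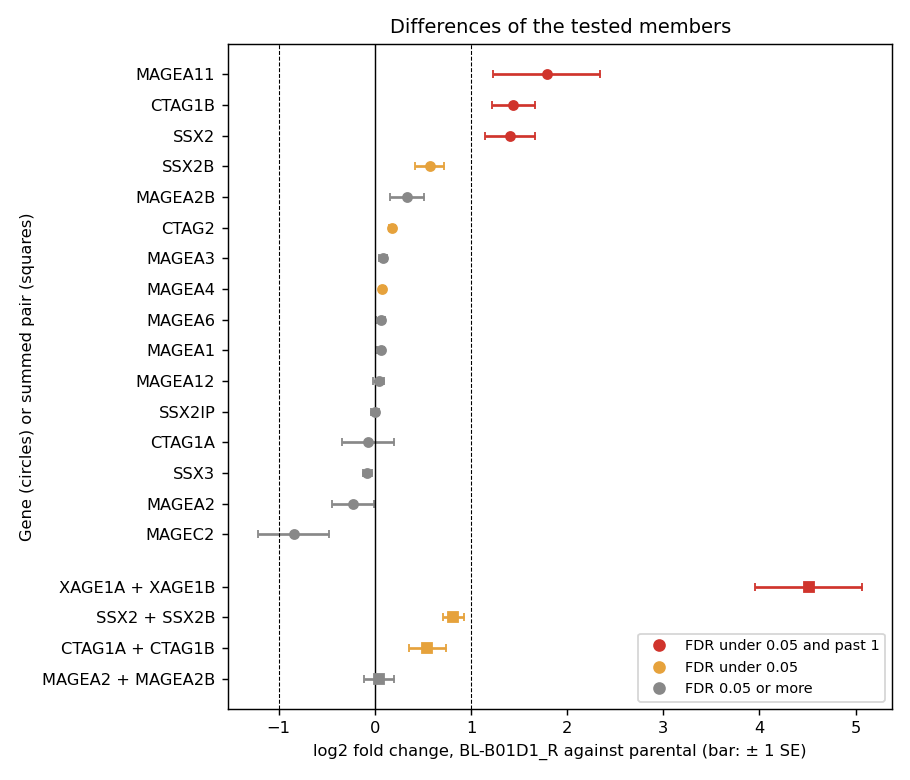
Log2 fold changes (BL-B01D1_R against parental, bars ± 1 SE) of the 16 tested genes (circles) and of 4 summed pairs (squares), with dashed lines at the threshold of 1. SSX2 (1.40) and CTAG1B (1.44) lie past the threshold alone but not as summed pairs (0.82 and 0.55), and the XAGE1 pair lies at 4.51.

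XAGE1A (ENSG00000204379; X chromosome, forward strand, 52495676 to 52500812), an antigen gene of the XAGE family, had the largest contrast in counts. Parental libraries 1 to 3 held 2, 1 and 0 of its counts, and resistant libraries 1 to 3 held 176, 322 and 4. Resistant library 3 was thus near the parental level, at 0.247 CPM against up to 0.116 CPM, whereas resistant libraries 1 and 2 were at 10.6 and 21.9 CPM. The filter on low counts removed XAGE1A, since only 2 libraries exceeded it. From the summed counts, 502 against 3, the ratio of resistant to parental CPM was 169 (95% exact interval 57.4 to 821, counting error only), an interval that does not cover the spread between the resistant libraries. Without resistant library 3 the ratio was 254 (86.5 to 1237). DESeq2, which kept the gene, called it higher with an FDR of 2.59e-04. DESeq2 kept it because of the resistant libraries, in which it is higher, so this FDR adds no weight.

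XAGE1B, the near-identical copy at 52512077 to 52520803, had 5, 12 and 3 counts in parental and 4, 1 and 11 counts in resistant libraries. As a pair they had 7, 13 and 3 counts in parental and 180, 323 and 15 in resistant libraries, so that resistant library 3, at 0.924 CPM, barely exceeded the highest parental library at 0.774 CPM. The pair was called higher with a log2 fold change of 4.51 (SE 0.56, edgeR FDR 1.02e-08). All resistant libraries but only parental library 2 reached the filter's level of 0.606 CPM. The pair was thus tested because of the resistant libraries, in which it is higher, and the FDR adds no weight. The log2 fold change ranged from 3.61 without resistant library 2 to 5.08 without parental library 2, and was 5.07 without resistant library 3 (edgeR FDR 1.77e-19). With pairs summed, the XAGE1 pair and MAGEA11 were the rows called higher, where 2.53% of all rows in that fit were. Nothing is read from this count, since both rows were tested because of the resistant libraries. Among the abundant genes, resistant library 3 had the highest level of its group in MAGEA4, 390.2 CPM, and in CTAG2, 200.5 CPM. It had the lowest in SSX3, 66.2 CPM.

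MAGEC2, which encodes an antigen that activates TRIM28, was lower in every resistant library. It had 20, 23 and 17 counts in parental and 10, 10 and 13 counts in resistant libraries, or 1.25 ± 0.11 CPM (SD, n = 3) and 0.695 ± 0.0998 CPM (SD, n = 3). The groups did not overlap, yet the log2 fold change of −0.84 (SE 0.37) did not pass the test over all genes (edgeR FDR 0.0735). MAGEC1 and MAGEC3 had 1 count each over all 6 libraries.

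The remaining families were at or near 0 in both lines. In MAGEB, 8 of 11 genes had no count, and MAGEB18 had the most, with 5, 3 and 1 counts in parental and 2, 0 and 0 in resistant libraries. In GAGE, 9 of 13 genes had no count and none exceeded 3 in any library. In PAGE, 4 of 6 had no count, PAGE1 reached 4 counts in parental library 1 and PAGE4, the prostate-associated member of the family, had 1 count in all. SSX7 reached 4 counts in parental library 1, and SSX1, the SSX gene of most synovial sarcoma fusions, did not exceed 3. A level of up to 3 counts, or 0.174 to 0.216 CPM, could not be told from 0 in these genes.

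Of the 62 genes, 61 lie on the X chromosome, in 10 clusters when genes more than 2 Mb apart are separated. The cluster from 151912509 to 154653579, with 11 MAGEA and CTAG genes, held 12586 to 16286 counts per library and 10 of the 16 tested genes. The cluster of 20 GAGE, PAGE and SSX genes from 48186220 to 49833973 held 993 to 1232 counts, nearly all from SSX3. The cluster of 8 SSX and XAGE genes from 52369030 to 52868068, which holds both the SSX2 and the XAGE1 pair, had 453, 298 and 493 counts in parental and 905, 1058 and 692 in resistant libraries. Clusters of MAGEB genes held at most 5 counts per library.

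Genes beside the cluster with SSX2 and XAGE1 had smaller fold changes than the XAGE1 and SSX2 pairs. Within 500 kb of it, 6 other protein-coding genes were tested and none was called by edgeR, with log2 fold changes of −0.12 for KDM5C, 0.01 for IQSEC2, 0.03 for KANTR, 0.10 for MAGED1, 0.25 for TSPYL2 and 0.40 for FAM156A. Of these, MAGED1 and TSPYL2 rose and KDM5C fell at an FDR of less than 0.05. Within 500 kb of any of the X-linked family genes, 103 other protein-coding genes were tested, 0 called higher and 2 lower (2.53% and 2.84% of all tested genes), with a median log2 fold change of 0.04. At an unadjusted p of less than 0.05, 18 of these were higher and 20 lower in edgeR, against 3626 and 3816 of all 17142 tested genes. With limma-voom and DESeq2, 0 were also called higher. The 2 genes called lower were ATP2B3, a calcium pump, at −1.05 and BGN, a matrix proteoglycan, at −1.10, of which limma-voom called 1 and DESeq2 0. Both reached the filter's level in 3 parental libraries but in fewer resistant ones, 1 for ATP2B3 and 2 for BGN. They thus passed the filter with the help of the group in which they are higher. L1CAM, a cell adhesion gene inside the span of the MAGEA and CTAG cluster but farther than 500 kb from any family gene, was called lower at −1.40 (edgeR FDR 2.61e-15). Of 486 other tested protein-coding genes of the X chromosome, 11 were called higher and 16 lower, with a median of 0.00237.

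MAGE genes outside the cancer-testis group, which are made in many tissues, differed little. Of 11 listed, 7 were tested, with a median log2 fold change of 0.10. By edgeR, 0 were called in either direction, against 2.53% higher and 2.84% lower of all tested genes. MAGED2 rose by 0.18 on the log2 scale (edgeR FDR 8.49e-04) and MAGED1 by 0.10 (edgeR FDR 0.0411). At an unadjusted p of less than 0.05 in edgeR, 3 genes were higher and 0 lower, against 3626 and 3816 of all 17142 tested genes. limma-voom and DESeq2 called 0 as well.

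Among 12 listed partners and substrates of MAGE proteins, all tested, 6 fell and 1 rose at an FDR of less than 0.05, against 18.4% lower and 17.1% higher of all tested genes. The median log2 fold change was −0.10. TRIM28, the partner of MAGEA3, MAGEA6 and MAGEC2, went from 687 ± 54.1 CPM to 644 ± 16.2 CPM (SD, n = 3), with a log2 fold change of −0.09 (edgeR FDR 0.0219). PRKAA1, the AMPK subunit degraded through MAGEA3 and MAGEA6, was at −0.11 on the log2 scale (edgeR FDR 0.00201), PJA1, a partner of MAGED1, at −0.48, and PCF11, a substrate of MAGEA11 with HUWE1, at 0.20. TRIM31, a RING ligase that binds MAGEA1, was the only gene called, at −1.25 on 16, 14 and 9 counts in parental and 8, 5 and 3 counts in resistant libraries. It passed the filter on low counts through the parental libraries alone, and DESeq2 did not call it. Of all tested genes, 2.84% were called lower.

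Of 73 other cancer-testis antigen genes listed, 26 had no count and 26 were tested, with a median log2 fold change of −0.03. Of those tested, 1 was called higher and 1 lower, near the 2.53% and 2.84% of all tested genes, so nothing is read from this count. At an FDR of less than 0.05 in edgeR, 4 rose and 6 fell, against 17.1% and 18.4% of all tested genes. Nothing is read from these counts either, and not all of these genes are named here. DDX53, an X-linked DEAD-box RNA helicase gene, fell from 329, 320 and 271 counts in parental to 129, 92 and 114 in resistant libraries (log2 fold change −1.45, SE 0.11). VCX was called higher at 1.00 (SE 0.35, edgeR FDR 0.0219), though not by DESeq2, on 8, 19 and 13 counts in parental and 24, 27 and 29 counts in resistant libraries. It reached the filter's level in 2 parental and 3 resistant libraries. SAGE1 rose from 8.72 ± 0.21 to 13.2 ± 0.79 CPM (SD, n = 3), and CT45A10 fell from 4.44 ± 0.357 to 2.56 ± 0.943 CPM (SD, n = 3), both under the fold-change threshold. PRAME, an autosomal antigen, fell from 29.5 ± 3.42 to 24.7 ± 0.713 CPM (SD, n = 3). CSAG1, CSAG2 and CSAG3, which lie among the MAGEA genes, had log2 fold changes of 0.06, −0.72 and 0.40, with an FDR of less than 0.05 for CSAG3 alone (edgeR FDR 3.79e-04). CSAG2 had 73 counts in parental library 2 and 7 to 19 in every other library.

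A list of regulators of DNA methylation and germline gene silencing, which includes the demethylating TET enzymes and CTCF, had small fold changes. Of 31 listed genes, 30 were tested, 14 fell and 0 rose at an FDR of less than 0.05 in edgeR, against 18.4% lower and 17.1% higher of all tested genes. The median log2 fold change was −0.10. DNMT1, the maintenance methyltransferase, fell from 380.3 ± 8.90 to 322 ± 10.9 CPM (SD, n = 3; log2 fold change −0.24), and its partner UHRF1 (−0.25), DNMT3B (−0.28) and SUZ12 (−0.27) also fell, whereas DNMT3A was at 0.09 (edgeR FDR 0.165). CTCF, which binds insulators, is among the 14 (−0.13), and TET1, TET2 and TET3 did not pass the test. None of the 30 was called by edgeR, limma-voom or DESeq2, where edgeR called 2.53% of all tested genes higher and 2.84% lower. At an unadjusted p of less than 0.05 in edgeR 16 were lower and 0 higher, against 3816 and 3626 of all 17142 tested genes. Whether these levels bear on the antigen genes was not tested.

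HLA class I presentation genes moved in both directions. Of 16 tested genes of 17, 4 rose and 5 fell at an FDR of less than 0.05, against 17.1% higher and 18.4% lower of all tested genes. The median log2 fold change was −0.04, and the values ran from −0.89 to 0.83, beyond the examples named here. The immunoproteasome subunit PSMB9 fell from 4.74 ± 0.489 to 3.01 ± 0.101 CPM (SD, n = 3; log2 fold change −0.65), and the peptide transporter TAP2 (−0.38) also fell. ERAP1 (0.37), TAPBP (0.21) and PSMB10 (0.68) rose, and B2M was at 171 CPM in both lines. None was called by edgeR, limma-voom or DESeq2, where edgeR called 2.53% of all tested genes higher and 2.84% lower. At an unadjusted p of less than 0.05 in edgeR, 5 were higher and 5 lower, against 3626 and 3816 of all 17142 tested genes. Reads of HLA genes can match several family members, so single values are uncertain. The plot of lists shows these values beside those of the antigen families.

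**Figure D4:**
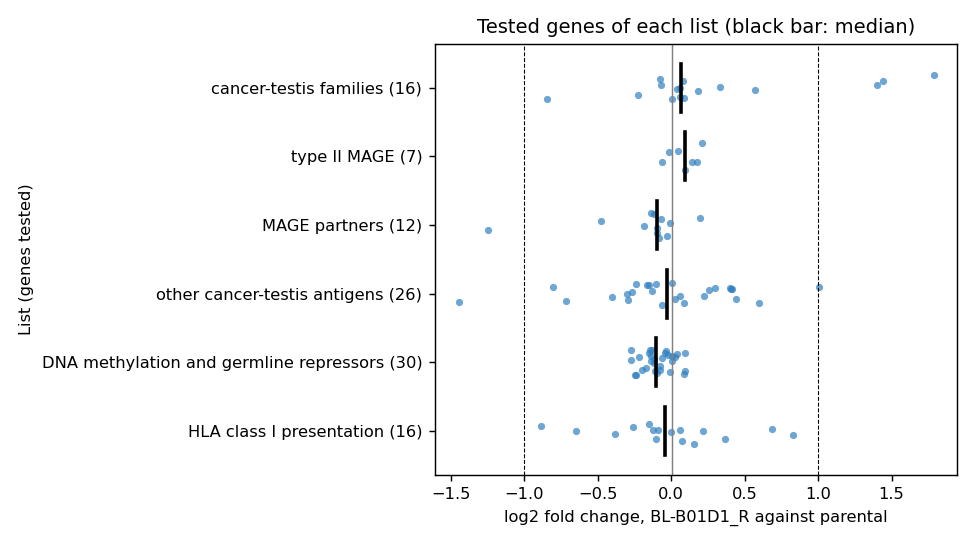
Log2 fold changes (BL-B01D1_R against parental) of the tested genes of each list, 1 point a gene, with the median as a black bar, the median of all tested genes as a gray line and the threshold of 1 as dashed lines. Medians run from −0.10 for the methylation and silencing list to 0.10 for the type II MAGE genes, those outside the cancer-testis group, and the antigen families have 3 points past the threshold.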

How the data were processed

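The authors trimmed reads with fastp, mapped them to hg38 with HISAT2 (version 2.0.5) and counted them per gene with featureCounts (version 1.5.0-p3). The deposited table holds raw counts, gene names, positions, biotypes and gene lengths, the latter listed as another quantity. Annotation release, strand setting and treatment of multi-mapped reads were not given in the sources used here. The number of unused columns of per-sample values was 0. No human sequence was used here.

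Deposited counts passed filterByExpr and TMM scaling, and groups were tested by quasi-likelihood in edgeR 4.0.16 under R 4.3.3, with Benjamini-Hochberg adjustment over 17142 genes. The SE is the size of the log2 fold change divided by the square root of F. Alternatives were limma-voom (limma 3.58.1), DESeq2 (1.42.0), library size alone, upper quartile, a filter of 10 counts in every library, none at all, glmTreat, prior counts raised to 5, limma on log2(FPKM + 1), protein-coding genes only, the replicate number as a block, FPKM for family sums and leaving out each library. Summing of near-identical copies was added after seeing the data. Scripts were tested on simulated data. Genes and lists were chosen with earlier results of these data known. Named genes are all tested genes of the families, others with more than 3 counts in a library, and list or neighbor genes called; further list genes are given as examples, chosen after their values were seen. Replicate numbers come from the sample labels. Within groups, chi-square divided by its degrees of freedom was 1.75 to 2.38, above sampling noise, so each was counted as 1 sample. Some genes are not reported here.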

Additional observations from a re-analysis of the deposited data

How the results depend on the processing

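The number of family genes called higher, 3, was 0 under glmTreat and 1 under limma on log2(FPKM + 1), and ranged from 2 to 4 with 1 library left out. The number called lower was 0 in every setting run. The 6 genes higher at an FDR of less than 0.05 became 3 with DESeq2 (XAGE1A among them), 0 under glmTreat and 2 under limma on log2(FPKM + 1). Their number ranged from 5 to 8 with 1 library left out. The 0 genes lower at that FDR became 1 with at least 10 counts in every library and 1 with limma on log2(FPKM + 1), MAGEC2 in both. They ranged from 0 to 1 with 1 library left out (MAGEA2 without parental library 1). Over all genes, 434 called higher and 487 lower became 248 and 287 with at least 10 counts in every library, 178 and 144 under glmTreat, and 114 and 67 under limma on log2(FPKM + 1), and ranged from 415 to 450 and from 471 to 493 with 1 library left out. The cause of these changes was not tested, apart from the fewer genes tested with at least 10 counts. Signs turned only in genes that had not passed the test. SSX2IP was −0.00985 with library size alone, −0.00768 with limma on log2(FPKM + 1) and −0.0214 to 0.0365 with 1 library left out. CTAG1A was 0.17 with limma-voom, 0.0453 with limma on log2(FPKM + 1), 0.0221 with the replicate block and −0.40 to 0.71 with 1 library left out. MAGEA2 ranged from −0.58 to 0.00867 and the summed MAGEA2 pair from −0.24 to 0.24 with 1 library left out.

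Adding the replicate block gave 418 higher and 471 lower calls over all genes, and 3 and 0 among the family genes. Deviations from the group means of same-numbered libraries had correlations of −0.0196 to −0.00806, which gave no sign of pairing by number. These values cannot tell whether same-numbered libraries were handled together. At these depths a level of up to 3 counts could not be told from 0, which covers 24 genes without a count and 16 with at most 3 in any library.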
